A study of Mus musculus with 30 samples.

Results

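The thyroids of 3 FAD4T and 3 wild-type female mice of 2 months were compared by RNA sequencing, and these 6 libraries are 6 of the 30 in the series. They were chosen by their labels, which give sex, age and genotype. Both groups carried the C57BL/6 strain background, so the groups differ by the FAD4T genotype alone as far as the labels say. The labels do not state what the FAD4T line carries or which promoter drives it. FAD is the usual short form of familial Alzheimer's disease in the names of mouse lines. The gene App was therefore read in each library, and its values stand with the thyroid genes. The other 24 libraries are males of the same age, both sexes at 8 months and wild-type males in an ageing comparison. The comparison asks which genes differ between FAD4T and wild-type thyroids of young females.

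The thyroid stores its hormone inside follicles, bound in the protein thyroglobulin. Follicular cells take up iodide through the symporter Slc5a5, iodide is attached to thyroglobulin with hydrogen peroxide made by the Duox enzymes, and deiodinases convert the released hormone. The gland also holds C cells, vessels, fibroblasts and resident immune cells, and the parathyroids, thymus, fat and muscle lie beside it in the neck. Fatty acids and cholesterol are made in the cytosol and endoplasmic reticulum from acetyl-CoA, under the SREBP transcription factors. MHC class II molecules, which present peptides to helper T cells, are made mainly by dendritic cells, macrophages and B cells under the coactivator Ciita.

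Each library had between 14643804 and 17878468 counted fragments. Levels are given as CPM, in which each count is set relative to its library's total after scaling by the trimmed mean of M values, and differences as log2 differences, FAD4T minus wild type, with their standard error (SE). Of 50686 annotated genes, 18493 passed the minimum count and were tested with edgeR's quasi-likelihood test. A gene counted as called at a Benjamini-Hochberg adjusted p under 0.05 over all genes tested. With 3 libraries in each group, the groups are also called separate where every FAD4T value lay above, or every one below, all wild-type values.

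Some of the libraries stood apart from the rest, and this touches every result that follows. Thyroglobulin transcripts took 8.01%, 4.64% and 19.3% of the counts in FAD4T libraries 1 to 3, and 5.58%, 18.7% and 19.1% in wild-type libraries 1 to 3. FAD4T libraries 1 and 2 were high in markers of the thymus. Averaged over 11 thymocyte genes on the log2(CPM + 1) scale, the level was 4.03 and 4.62 there, against 1.07 in FAD4T library 3 and 2.13, 0.88 and 0.97 in the wild types. In the same order the 10 thymic epithelial markers stood at 4.50, 4.32 and 2.24 and at 2.74, 2.19 and 2.09. The defining recombinase gene Rag1 was at 21, 29.5 and 0.178 CPM in the FAD4T libraries and 1.74, 0 and 0 CPM in the wild types. Wild-type library 1 was high in liver markers, with a list level of 7.11 against 1.21 or less in the other 5 libraries and Alb, the gene of serum albumin, at 2422 CPM. Skeletal muscle markers stood at 4.39, 5.06 and 1.43 in FAD4T and 7.39, 4.55 and 5.02 in wild type. Parathyroid hormone, Pth, varied by library in both groups, at 54.2, 19320 and 5511 CPM in FAD4T and 33040, 79.6 and 6785 CPM in wild type. RNA from whole tissue cannot tell fewer cells of a type from less RNA per cell. Each gene group below is therefore given also with FAD4T libraries 1 and 2 and wild-type library 1 left out, which leaves FAD4T library 3 against wild-type libraries 2 and 3. That comparison is still uneven in other tissues, with a median log2 difference of -4.9 for skeletal muscle markers and -1.27 for airway epithelium markers. Their part in the results was not tested.

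**Figure D1:**
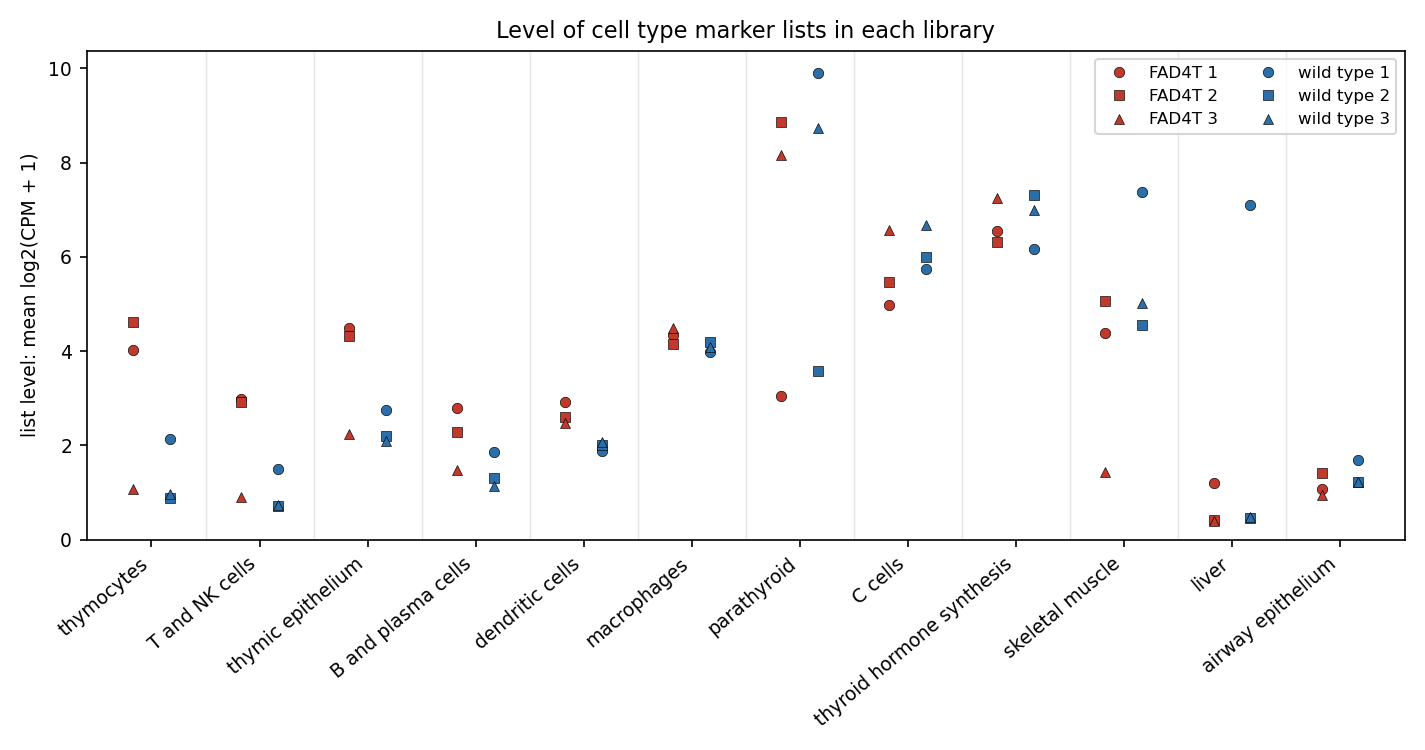
Level of 12 cell type marker lists in the 6 libraries, as the mean over list members of log2(CPM + 1) on the vertical axis; red symbols are FAD4T, blue are wild type, and circle, square and triangle are libraries 1, 2 and 3. FAD4T libraries 1 and 2 stand at 4.03 and 4.62 for thymocytes, wild-type library 1 stands at 7.11 for liver, and the dendritic cell list is higher in the FAD4T libraries than in the wild types.

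No gene was called between the groups: 0 of 18493, or 0%, at an adjusted p under 0.05, and the smallest adjusted p was 0.153. Before adjustment 3087 genes had a p under 0.05, of which 1654 were higher in FAD4T (8.94% of all genes tested) and 1433 lower (7.75%). The groups were separate for 1071 genes with FAD4T higher (5.79%) and for 766 with FAD4T lower (4.14%). DESeq2 on the same 24 libraries called 287 genes, 126 higher and 161 lower, with 3562 at an unadjusted p under 0.05. The count depended on single libraries. Without FAD4T library 3, which leaves the FAD4T libraries high in thymus markers, 3001 of 18934 genes were called, 1178 higher (6.22%) and 1823 lower (9.63%). Without wild-type library 2 or 3 the count was 100 or 130, and without FAD4T library 1 or 2 or wild-type library 1 it was 0.

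The genes of smallest p were named by a rule that takes 12 in each direction among those with separate groups and a mean of 5 CPM or more in either genotype. All 24 shared the adjusted p of 0.153 in edgeR's quasi-likelihood test, so the values that follow are differences that did not pass it. DESeq2 called all 24, and so did edgeR without FAD4T library 3. Each of the 24 kept its sign in the 13 alternative settings run. The rule admits only genes with separate groups, so leaving out libraries could hardly turn a sign.

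Of the 12 higher genes, Cyth4, Pheta1, Dennd3 and Dennd2d act in membrane traffic. Cyth4, an exchange factor for ARF GTPases found in blood cells, was at 24.7, 27.9 and 15.4 CPM in FAD4T libraries 1 to 3 and 11.04, 10.98 and 9.85 CPM in wild-type libraries 1 to 3, a log2 difference of 1.09 (SE 0.20). Pheta1, an adapter of endosome recycling at chr5:121848984-121854632 (GRCm38), was at 94.2, 102 and 60.1 against 49.6, 41.7 and 32.6 CPM, a difference of 1.05 (SE 0.19). Dennd3, an activator of Rab GTPases, was at 100.2, 89.3 and 82.3 against 51.8, 57.1 and 60.1 CPM. The 3 genes were lowest in library 3 within the FAD4T group, and that value lay above every wild-type library, as the rule requires. Dennd2d, of the same DENN domain family, had a difference of 0.66 (SE 0.14).

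Irf4, Icosl and Traf5 are known from immune cells. Irf4, a transcription factor of lymphocytes and dendritic cells, was at 16.03, 16.9 and 7.73 CPM in FAD4T and 4.65, 3.76 and 4.09 CPM in wild type, the largest difference of the 12 at 1.70 (SE 0.38). Icosl, the ligand of the T cell costimulator ICOS, was at 25.6, 22.6 and 15.8 against 12.96, 11.2 and 12.03 CPM. In both genes library 3 was the lowest of the FAD4T group, at 7.73 and 15.8 CPM. It lay above the wild types, as the rule requires. Traf5, an adapter of TNF family receptors, and Neurl3, a ubiquitin ligase, had differences of 0.68 and 1.22. With FAD4T libraries 1 and 2 and wild-type library 1 left out, Irf4 differed by 0.97, Icosl by 0.44 and Neurl3 by 1.11.

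Thrb, a nuclear receptor for thyroid hormone at chr14:17660960-18038088 (GRCm38), was at 29.04, 20.3 and 15.9 CPM in FAD4T libraries 1 to 3 and 13.4, 11.9 and 11.98 CPM in wild-type libraries 1 to 3. Its difference was 0.81 (SE 0.18), and 0.41 with the 3 libraries left out. In the list of thyroid hormone receptors and targets 7 of 9 genes were lower, with a median of -0.54, and -0.58 with the 3 libraries left out. Among the lower genes 3 had separate groups (4.14% of all genes), and among the higher only Thrb did (5.79%). Camkk1, a kinase upstream of calcium and calmodulin dependent kinases, differed by 0.84, the zinc finger gene Zfp7 by 0.59 and Tk1, the thymidine kinase of dividing cells, by 1.15.

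Of the 12 lower genes Cyp51 had the smallest p, and Pemt and Sc5d also make lipids. Cyp51, the lanosterol demethylase of cholesterol synthesis, was at 14.6, 15.6 and 18.8 CPM in FAD4T libraries 1 to 3 and 33.2, 29.2 and 23.3 CPM in wild-type libraries 1 to 3, a log2 difference of -0.81 (SE 0.16). Sc5d, the sterol desaturase of a later step of that pathway, was at 38.6, 31.4 and 57.1 against 70.1, 83.2 and 75.8 CPM, a difference of -0.85 (SE 0.20). For both, FAD4T library 3 was the highest of its group and lay below every wild-type library, as the rule requires. Pemt, which makes phosphatidylcholine by methylation, was at 2.68, 3.08 and 3.57 against 11.3, 8.33 and 4.49 CPM, a difference of -1.37 (SE 0.30). Most of the spread was in the wild types, with the highest value in library 1, which was high in liver markers. Without that library the difference was -1.05, and with the 3 libraries left out it was -0.845.

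Me3, Mrps31, Endog and Dnaja3 encode mitochondrial proteins. Spr, the sepiapterin reductase of tetrahydrobiopterin synthesis, was at 13.5, 13.99 and 17.4 against 24.98, 28.1 and 21.9 CPM, and Me3, a mitochondrial malic enzyme, at 6.81, 7.11 and 8.799 against 12.1, 12.3 and 12.1 CPM. The groups of both genes were separate, as the rule requires, and its choice by smallest p favours genes with little spread. Mrps31, a protein of the mitochondrial ribosome, differed by -0.54 (SE 0.12), Endog, a mitochondrial nuclease, by -0.77 (SE 0.18), Dnaja3, a mitochondrial co-chaperone, by -0.56 (SE 0.13) and Cited4, a transcriptional coactivator, by -0.84 (SE 0.19). Rgn, Gnmt and Sec14l2 are genes with high expression in liver, and their wild-type means were carried by library 1: Rgn was at 40.8, 5.06 and 3.69 CPM in wild-type libraries 1 to 3. With the 3 libraries left out their differences were -0.45, -0.48 and -0.22, in place of -2.83, -1.92 and -2.23.

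**Figure D2:**
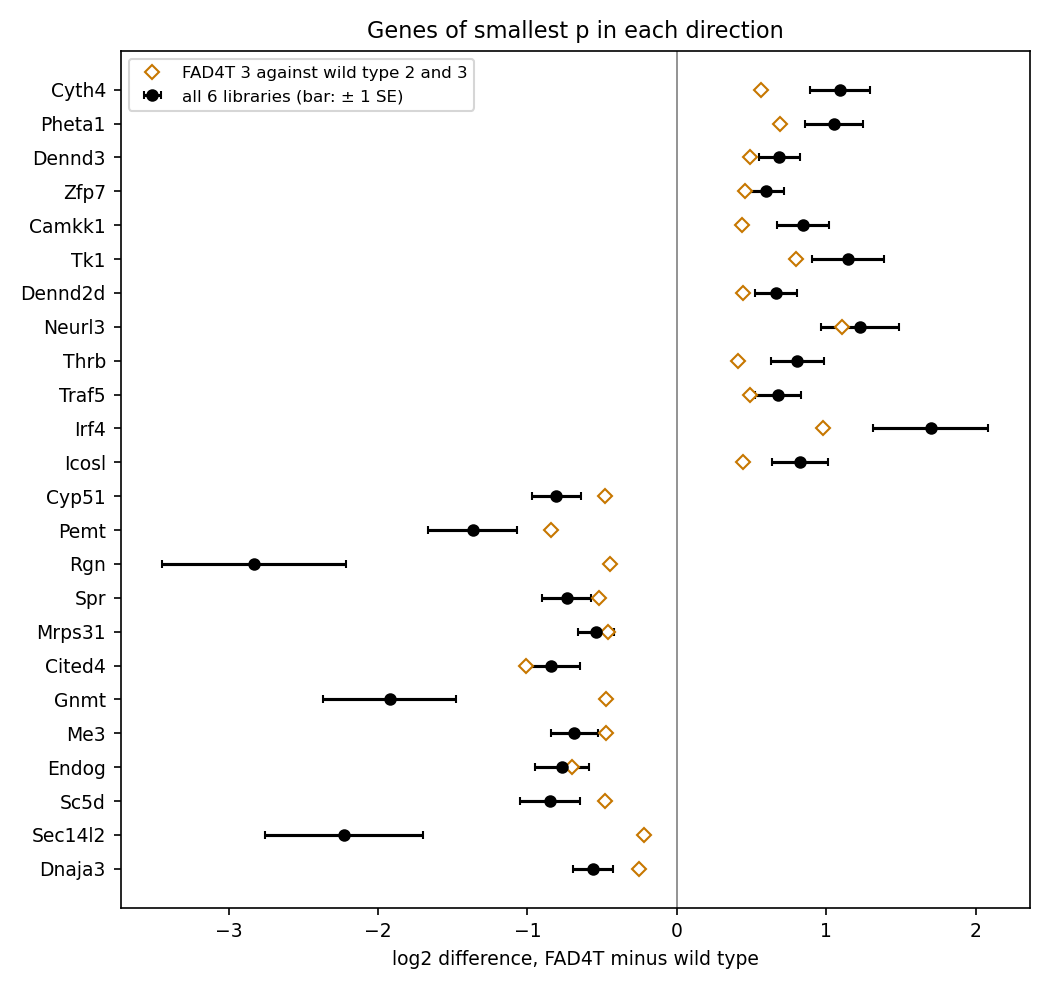
Log2 difference, FAD4T minus wild type, on the horizontal axis for the 24 genes of smallest p; black points with bars of 1 SE use all 6 libraries and open diamonds use FAD4T library 3 against wild-type libraries 2 and 3. Each gene stays on its side of 0, which its choice by separate groups all but fixes. Rgn, Gnmt and Sec14l2 move most toward 0 when wild-type library 1 and the other 2 libraries are left out.

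Genes of fatty acid synthesis were lower in FAD4T. Of 15 genes in the list, all 15 had a negative difference, 6 at an unadjusted p under 0.05 against 7.75% of all genes, and 10 with separate groups against 4.14%. None was called in the 6 libraries. The median difference was -0.63, beside -0.020 over all genes tested, and -0.78 with the 3 libraries left out.

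The enzymes that supply acetyl-CoA and NADPH come first in the pathway. Acly, which makes cytosolic acetyl-CoA from citrate and lies at chr11:100476353-100528000 (GRCm38), was at 575, 315 and 328 CPM in FAD4T libraries 1 to 3 and 711, 836 and 888 CPM in wild-type libraries 1 to 3, a log2 difference of -0.9998 (SE 0.34, edgeR adjusted p = 0.196). Me1, the cytosolic malic enzyme that supplies NADPH, was at 533, 319 and 387 against 599, 790.4 and 707 CPM, a difference of -0.76 (SE 0.29, edgeR adjusted p = 0.223). In both, FAD4T library 1 was the highest of its group and still below the lowest wild type. Acaca, the acetyl-CoA carboxylase that commits carbon to fatty acids, was at 298, 206 and 263 against 300.3, 380.3 and 483 CPM; the nearest values of the groups, both from library 1, were almost equal.

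Fasn, the fatty acid synthase, was at 1686, 1055 and 936 CPM in FAD4T libraries 1 to 3 and 1833, 1796 and 2179 CPM in wild-type libraries 1 to 3, a difference of -0.66 (SE 0.44). Scd1, the desaturase that makes oleate, was at 3579, 2784 and 2839 against 4159, 4465 and 6112 CPM, a difference of -0.68 (SE 0.41). The groups were separate for both, and the SE, which pools the spread of all 8 groups of the fit, was wide. Fads2, the desaturase of polyunsaturated fatty acids, was at 3.63, 5.93 and 18.2 against 18.3, 24.7 and 21.8 CPM, and its FAD4T libraries 1 and 2 were far below library 3. Srebf1, which encodes the transcription factor of this pathway, was at 201, 165 and 144 against 196, 212 and 231 CPM, and the groups overlapped in the values of library 1.

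The glycerolipid genes had the same sign less evenly, with 7 of 10 lower and a median of -0.53, or -0.37 with the 3 libraries left out. Of the 7, 4 were at an unadjusted p under 0.05 (7.75% of all genes) and 5 had separate groups (4.14%). Agpat2, which makes phosphatidic acid, was at 141, 138 and 123 CPM in FAD4T and 223, 206 and 189.8 CPM in wild type, a difference of -0.62 (SE 0.21). Lpin1, the phosphatidate phosphatase, was at 49.5, 42.9 and 43.1 against 78.4, 65.1 and 76.98 CPM, a difference of -0.70 (SE 0.25). Within each group these values were close together, and the differences were -0.69 and -0.72 with the 3 libraries left out.

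Many of these genes are highly expressed by adipocytes, which surround the gland, so the adipocyte markers stand beside them. The adipocyte list had 8 of 18 members higher and 10 lower, with a median of -0.034, and its level ranged from 6.29 to 6.99 in FAD4T and from 6.40 to 6.94 in wild type. Without the 3 libraries its median was -0.34, with 13 of 18 lower. Among its members Lep, the hormone leptin, was at 8.601, 9.18 and 7.25 against 19.99, 18.8 and 28.1 CPM, and Ucp1, the uncoupling protein of brown fat, at 167, 106 and 89.7 against 246, 177 and 181 CPM, both with separate groups. Elovl3, a fatty acid elongase of brown fat, was at 3.29, 1.96 and 2.91 against 15.3, 4.195 and 4.55 CPM. Lep, Ucp1 and Elovl3 were the only 3 of the 18 members with separate groups, so they do not stand for the list. In the other direction, the member Pck1, given at the end of the report, differed by 1.4. The part of adipose tissue in the lower lipid genes was not tested.

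Cholesterol synthesis and uptake genes were lower as well. Of 23 tested genes 20 had a negative difference. Of these, 12 were at an unadjusted p under 0.05 (7.75% of all genes) and 11 had separate groups with FAD4T lower (4.14%). The median difference was -0.42, and -0.24 with the 3 libraries left out. Without FAD4T library 3, where 9.63% of all genes were called lower, 9 of these 23 were, and 3 of the 15 fatty acid genes.

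The members act along the pathway in this order. Hmgcs1, the synthase that makes HMG-CoA, was at 32.6, 53.6 and 42.9 CPM in FAD4T libraries 1 to 3 and 55.6, 58.3 and 50.4 CPM in wild-type libraries 1 to 3, with overlap at FAD4T library 2. Pmvk, the phosphomevalonate kinase, was at 15.6, 14.6 and 18.4 against 23.1, 26.9 and 22.4 CPM. Fdft1, the squalene synthase, was at 58.1, 50.3 and 62.7 against 71.3, 79.3 and 76.6 CPM, a difference of -0.41 (SE 0.13). From Pmvk on, these groups were separate. Sqle, the squalene epoxidase, was at 14.4, 21.7 and 20.8 against 35.9, 26.1 and 26.9 CPM, a difference of -0.65 (SE 0.23). Nsdhl, which acts after Cyp51, was at 30.6, 32.2 and 26.2 against 45.95, 38.7 and 34.1 CPM, a difference of -0.42 (SE 0.14). The edgeR adjusted p of Fdft1, Sqle and Nsdhl was 0.179, 0.2 and 0.194.

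**Figure D3:**
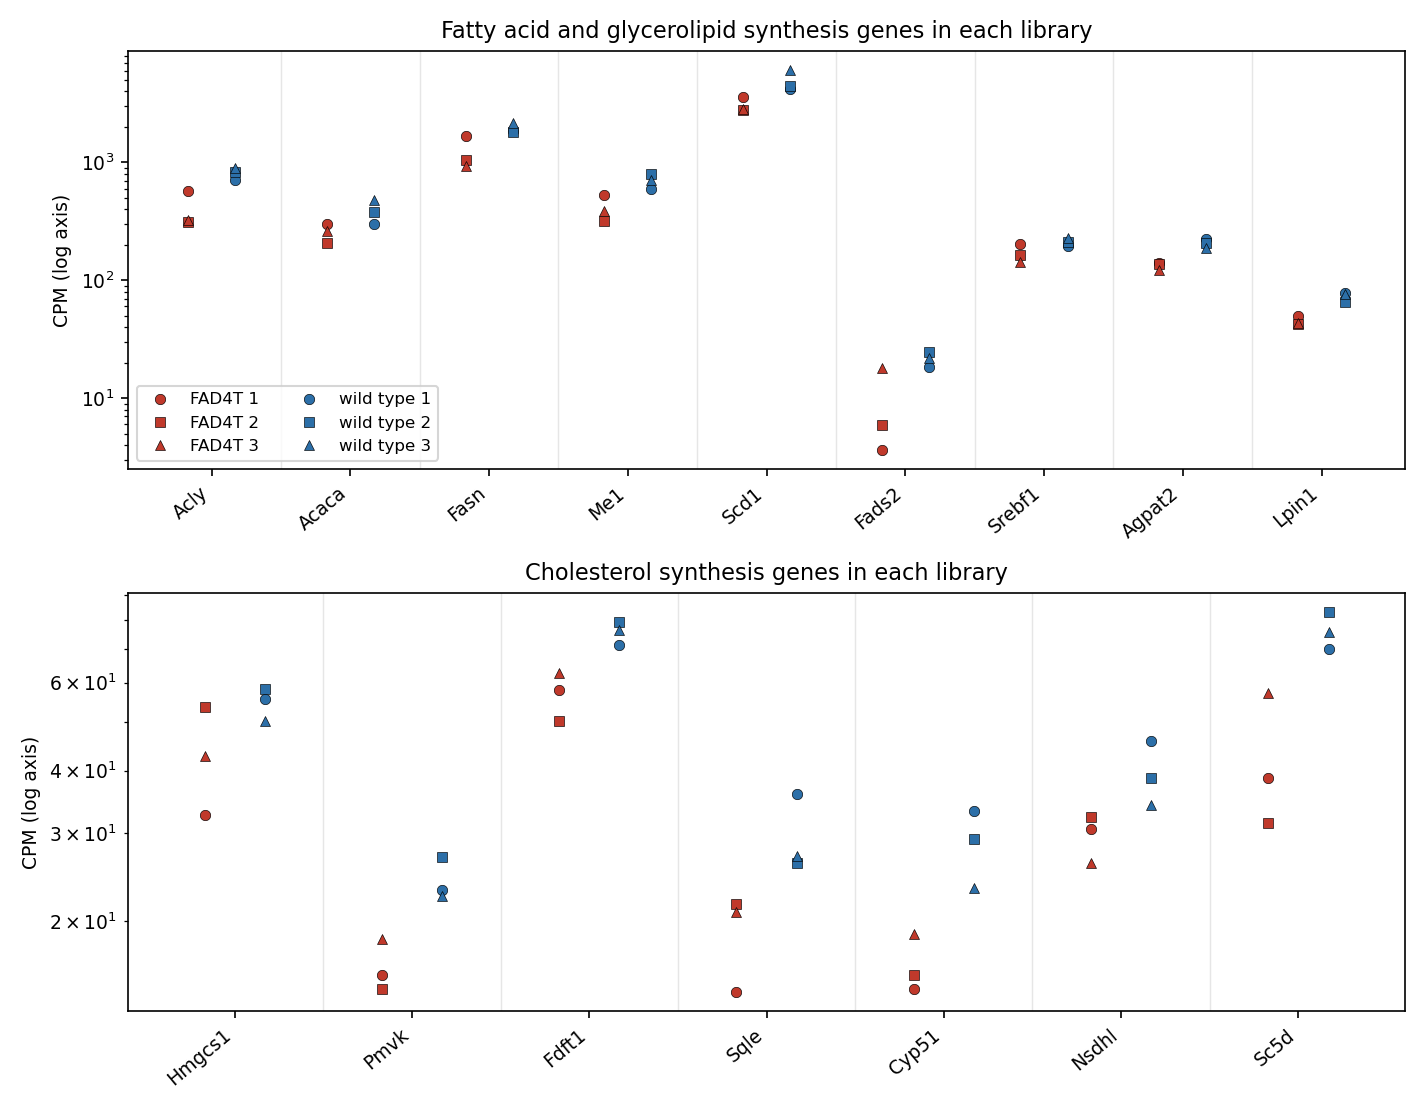
CPM on a log axis in each of the 6 libraries for 9 genes of fatty acid and glycerolipid synthesis (top) and 7 of cholesterol synthesis (bottom); red is FAD4T, blue is wild type, and the symbol gives the library number. Every FAD4T point lies below every wild-type point for all genes shown except Srebf1 and Hmgcs1.

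Stretches of the promoters of Cyp51 and Hmgcs1 are printed because both are sterol-regulated genes of this group. They come from RefSeq on the GRCm38 build, are read in the direction of the gene, and lie before the RefSeq start site. Capitals mark the core of a sterol regulatory element, the DNA site of SREBP, searched as TCACCNCA on both strands in the 250 bases before each start site.
Cyp51, chr5:4104752-4104811, minus strand: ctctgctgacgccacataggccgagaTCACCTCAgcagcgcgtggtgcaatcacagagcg
Hmgcs1, chr13:119690188-119690247, plus strand: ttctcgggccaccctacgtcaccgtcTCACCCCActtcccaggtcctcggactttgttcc
The first marked base is 88 bases before the start site in Cyp51 and 137 in Hmgcs1. Of the 16 promoters found for the cholesterol list, 4 held this core (25%), of 12 for the fatty acid list 1 did (8.33%), and of all 32851 promoters 1185 did (3.61%). A match describes these letters and is no evidence of binding.

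MHC class II genes were higher in FAD4T. Of 10 tested genes 9 had a positive difference, 7 of them at an unadjusted p under 0.05 beside 8.94% of all genes, and 7 had separate groups beside 5.79%. None was called in the 6 libraries by edgeR, and DESeq2 called 5. The median difference was 0.66, and 0.52 with the 3 libraries left out.

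The antigen-presenting chains differed by similar amounts. H2-Aa, the alpha chain of I-A at chr17:34282744-34287827 (GRCm38), was at 164, 133 and 131 CPM in FAD4T libraries 1 to 3 and 94.9, 93.7 and 80.1 CPM in wild-type libraries 1 to 3, a log2 difference of 0.67 (SE 0.18, edgeR adjusted p = 0.153). H2-Ab1, its beta chain, was at 137, 128 and 129 against 81.6, 94.9 and 72.8 CPM, a difference of 0.66 (SE 0.18). H2-Eb1, the beta chain of I-E at chr17:34305877-34316199 (GRCm38), was at 139.5, 121 and 122 against 82.5, 85.4 and 69.1 CPM, a difference of 0.69 (SE 0.18). In all 3 genes FAD4T library 3 was within a few CPM of FAD4T library 2, and all FAD4T values lay above all wild-type values. The part of thymus in these values was not tested. With the 3 libraries left out the differences of H2-Aa, H2-Ab1 and H2-Eb1 were 0.59, 0.62 and 0.66. These genes have close paralogs in the H2 cluster, so reads could be split between them by the authors' counting.

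The genes that load and control class II differed among themselves. H2-DMa, a chain of the peptide exchanger DM, was at 17.5, 17.6 and 18.2 CPM in FAD4T and 11.6, 12.7 and 10.3 CPM in wild type. H2-Ob, a chain of its inhibitor DO, was at 9.49, 6.997 and 4.82 against 3.43, 2.78 and 2.19 CPM, a difference of 1.34 (SE 0.35). Ciita, the coactivator that switches class II on, was at 5.81, 5.49 and 5.65 against 1.57, 3.39 and 4.84 CPM. The 3 genes had separate groups, with the wild-type spread widest for Ciita. Cd74, the invariant chain, was at 324, 245 and 406 against 177, 349 and 243 CPM, and H2-DMb1, the partner of H2-DMa, at 15.97, 17.7 and 19.7 against 15.9, 28.1 and 18.02 CPM. For these last genes the groups overlapped, and the difference of H2-DMb1 was -0.21 (SE 0.21).

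Promoter stretches of H2-Aa and H2-Eb1 are printed because their class II control region is known for its Y box, an inverted CCAAT sequence. They come from the same RefSeq table, and Sc5d is printed beside them because the same letters occur there. Capitals mark CTGATTGG, searched on both strands in the same 250 bases.
H2-Aa, chr17:34287841-34287900, minus strand: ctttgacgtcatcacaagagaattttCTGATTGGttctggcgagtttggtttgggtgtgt
H2-Eb1, chr17:34305779-34305838, plus strand: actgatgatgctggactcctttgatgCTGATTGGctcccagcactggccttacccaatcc
Sc5d, chr9:42264301-42264353, minus strand: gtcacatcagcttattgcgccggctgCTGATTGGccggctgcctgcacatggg
The first marked base lies 51 bases before the start site in H2-Aa, 62 in H2-Eb1 and 27 in Sc5d. Of the 7 promoters found for the class II list 3 held these letters (42.9%), of the 16 of the cholesterol list 6 did (37.5%), none of the 12 of the fatty acid list did, and of all 32851 promoters 1258 did (3.83%). The same letters thus stood before genes that were higher and genes that were lower.

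Dendritic cell markers were higher with the class II genes. All 8 tested members had a positive difference, with a median of 0.85, and 0.50 with the 3 libraries left out. Of them 6 were at an unadjusted p under 0.05 (8.94% of all genes) and 5 had separate groups (5.79%). Itgax, the integrin CD11c, was at 8.43, 7.05 and 6.96 CPM in FAD4T libraries 1 to 3 and 4.36, 4.07 and 4.49 CPM in wild-type libraries 1 to 3, a difference of 0.80 (SE 0.21, edgeR adjusted p = 0.153). Clec9a, a receptor for dead cells on cross-presenting dendritic cells, was at 11.3, 9.404 and 6.66 against 4.94, 5.74 and 4.03 CPM. Siglech, a receptor of plasmacytoid dendritic cells, was at 4.64, 3.75 and 2.73 against 1.28, 1.42 and 2.07 CPM, a difference of 1.22 (SE 0.34). These groups were separate, with FAD4T library 3 the lowest of its group. Zbtb46, a transcription factor of classical dendritic cells that endothelium also expresses, was at 47.4, 47.9 and 44.8 against 31.8, 30.3 and 42.1 CPM. The thymus also holds dendritic cells, and their part in FAD4T libraries 1 and 2 was not tested.

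Macrophage markers had a smaller median difference. Of 14 genes 12 were higher, and the median was 0.26, or 0.40 with the 3 libraries left out. Of the 12, 3 were at an unadjusted p under 0.05 (8.94% of all genes) and 3 had separate groups (5.79%). Mrc1, the mannose receptor of resident macrophages, was at 22.5, 22.3 and 21.3 CPM in FAD4T and 14.6, 16.2 and 18.3 CPM in wild type. Mertk, a receptor for apoptotic cells, was at 37.2, 35.5 and 27.2 against 25.6, 19.7 and 25.3 CPM and Tyrobp, a signalling adapter of myeloid cells, at 10.2, 8.84 and 9.21 against 7.55, 8.27 and 5.12 CPM. The gaps between the groups were narrow in each.

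**Figure D4:**
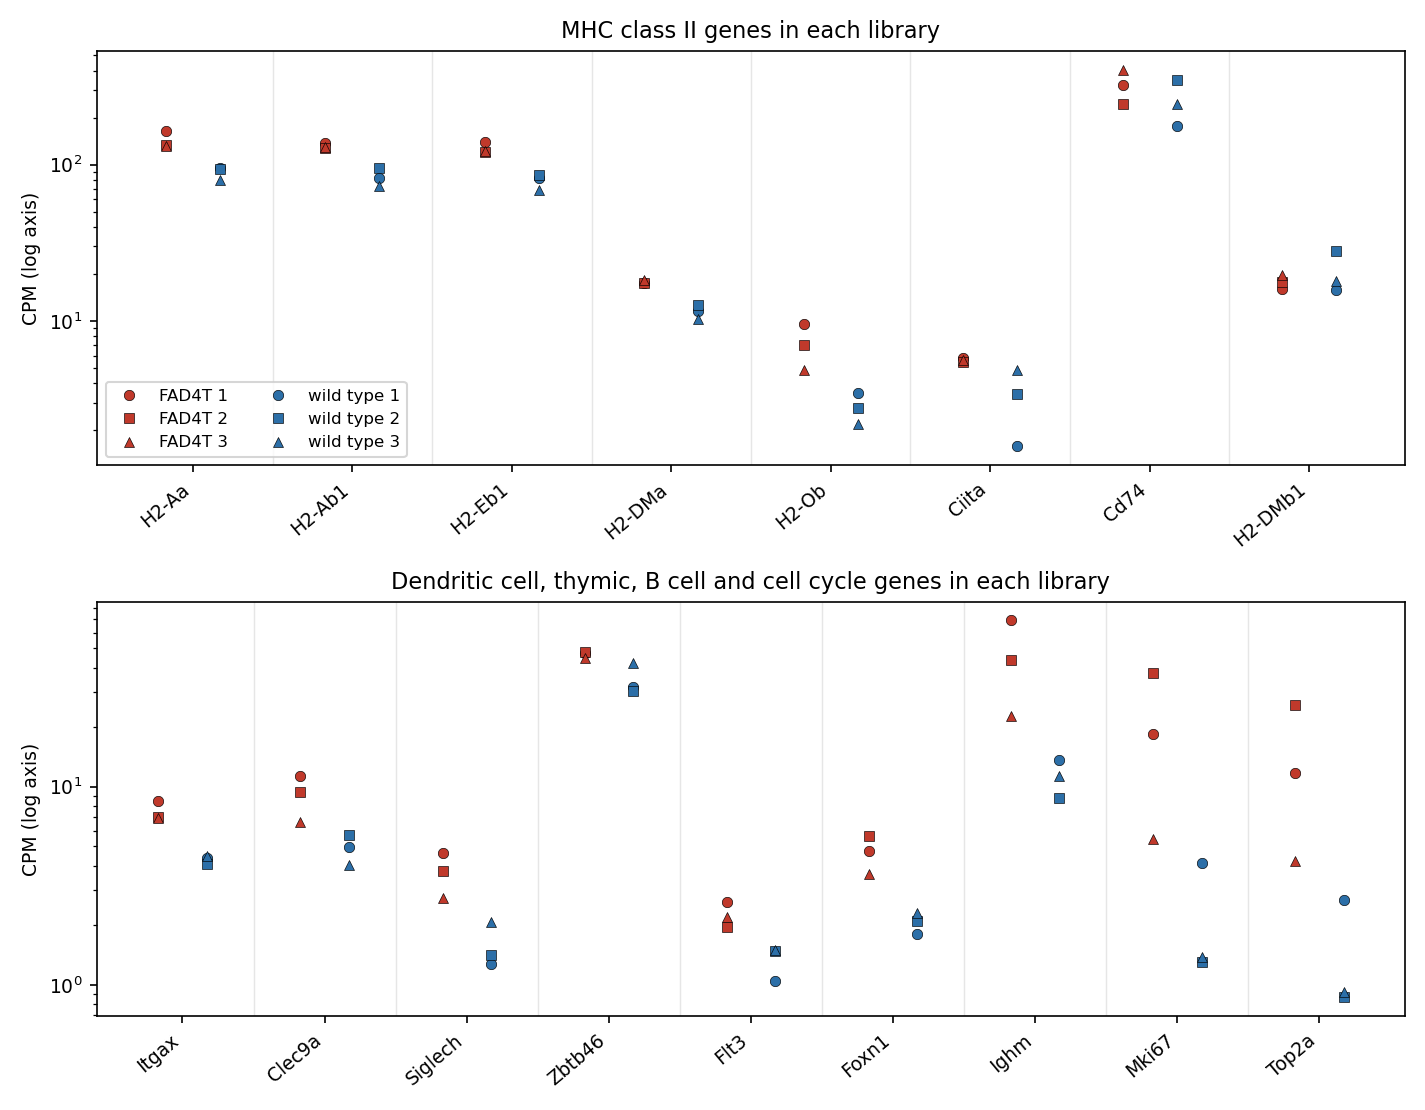
CPM on a log axis in each of the 6 libraries for 8 MHC class II genes (top) and 9 genes of dendritic cells, thymic epithelium, B cells and the cell cycle (bottom); red is FAD4T, blue is wild type, and the symbol gives the library number. The FAD4T points lie above the wild-type points for all genes shown except Cd74 and H2-DMb1, and in the bottom panel FAD4T libraries 1 and 2 stand far above library 3 for Mki67 and Top2a.

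MHC class I genes, which present peptides to cytotoxic T cells, and interferon-stimulated genes are given beside class II. In the class I list 10 of 15 genes were higher, 1 of them with separate groups, beside 5.79% of all genes. Its median was 0.21, and -0.015 with the 3 libraries left out. Tap1, a peptide transporter, was at 48.6, 44.5 and 40.8 CPM in FAD4T and 34.2, 33.9 and 29.6 CPM in wild type, and its groups were separate. H2-K1, a class I heavy chain, was at 771, 688 and 630.3 against 623, 658 and 554 CPM, with overlap. Of 26 interferon-stimulated genes 21 were lower, with a median of -0.20. Among the lower genes 1 was at an unadjusted p under 0.05 (7.75% of all genes) and 1, Bst2, had separate groups (4.14%). Among the higher genes 2 were at an unadjusted p under 0.05 (8.94%) and 2 had separate groups (5.79%), so Bst2 does not stand for the list. Bst2, the tetherin that holds budding virus at the membrane, was at 39.5, 39.2 and 34.01 against 67.7, 49.4 and 54.9 CPM, a difference of -0.61 (SE 0.15, edgeR adjusted p = 0.153). All 3 FAD4T values of Bst2 lay below the wild types. The list median was 0.041 without wild-type library 1 alone, and -0.19, with 21 of 26 genes lower, with the 3 libraries left out.

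Lymphocyte and cell cycle genes were highest in FAD4T libraries 1 and 2. All 11 thymocyte markers had positive differences, with a median of 3.88, but none had separate groups, and with the 3 libraries left out the median was 0.14. Dntt, the terminal transferase of immature lymphocytes, was at 18.04, 35.3 and 0.119 CPM in FAD4T libraries 1 to 3 and 1.28, 0.123 and 0.173 CPM in wild-type libraries 1 to 3. FAD4T libraries 1 and 2 held nearly all of it, and library 3 was among the wild types. Foxn1, the transcription factor of thymic epithelium, was at 4.75, 5.65 and 3.63 against 1.801, 2.097 and 2.303 CPM, a difference of 1.18 (SE 0.30). Unlike Dntt, Foxn1 was above the wild types in library 3 too. In the thymic epithelial list 9 of 10 genes were higher, with a median of 3.03. Among them 5 were at an unadjusted p under 0.05 (8.94% of all genes) and 2 had separate groups (5.79%). With the 3 libraries left out 5 were higher and 5 lower, with a median of 0.23, so Foxn1 does not stand for the list. In the B and plasma cell list 8 of 10 tested genes were higher, with a median of 1.41, and 3 were at an unadjusted p under 0.05 (8.94% of all genes). With the 3 libraries left out the median was -0.16, with 4 higher and 6 lower. Ighm, the heavy chain of immunoglobulin M, was at 69.1, 43.8 and 22.7 against 13.7, 8.82 and 11.3 CPM. It was the only 1 of the 10 with separate groups (5.79% of all genes), so it does not stand for the list.

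In the cell cycle list 21 of 25 genes were higher, 12 at an unadjusted p under 0.05 (8.94% of all genes) and 5 with separate groups (5.79% of all genes), with a median of 1.38 and, with the 3 libraries left out, 0.59. Without FAD4T library 3, 10 of them were called higher, beside 6.22% of all genes. Mki67, the proliferation antigen, was at 18.4, 37.5 and 5.47 CPM in FAD4T and 4.12, 1.296 and 1.38 CPM in wild type. Top2a, the topoisomerase of dividing cells, was at 11.8, 25.8 and 4.22 against 2.67, 0.864 and 0.921 CPM. FAD4T library 3 lay above all wild types in both genes, and well below the other FAD4T libraries. The groups of Aurkb, Kif11 and Tk1 were separate as well. Thymocytes divide rapidly, and the part of thymus in these values was not tested.

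Thyroid genes did not separate the groups as a set. Of the 14 hormone synthesis genes 10 were lower and 4 higher. Of the higher genes 2 had separate groups, beside 5.79% of all genes. The median was -0.35, and 0.014 with the 3 libraries left out. Slc5a5, the iodide symporter, was at 75.9, 97.6 and 216 CPM in FAD4T libraries 1 to 3 and 50.02, 176 and 61.7 CPM in wild-type libraries 1 to 3. FAD4T library 3 was the highest of the 6 and wild-type library 1 the lowest, and the groups overlapped.

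The 2 hormone genes with separate groups were Dio2 and Duoxa2. Dio2, the deiodinase that activates thyroxine, was at 9.66, 14.8 and 9.04 CPM in FAD4T and 4.18, 4.57 and 6.33 CPM in wild type, a difference of 1.15 (SE 0.40, edgeR adjusted p = 0.196). Duoxa2, the maturation factor of Duox2, was at 59.98, 64.9 and 62.2 against 37.3, 53.5 and 49 CPM, a difference of 0.42 (SE 0.20). Pax8, a transcription factor of follicular cells at chr2:24420560-24475599 (GRCm38), was at 584, 518 and 418 against 370.4, 326 and 370 CPM, a difference of 0.51 (SE 0.21). It was the only 1 of 4 listed thyroid transcription factors with separate groups, beside 5.79% of all genes. In that list 3 were higher and 1 lower, with a median of 0.27, and 0.15 with the 3 libraries left out. All 3 FAD4T values of Dio2, Duoxa2 and Pax8 lay above the wild types. The share of thyroglobulin was low in FAD4T libraries 1 and 2 and in wild-type library 1, and its part in these values was not tested. With the 3 libraries left out the differences of Dio2, Duoxa2 and Pax8 were 0.73, 0.28 and 0.26.

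Chaperone genes of the endoplasmic reticulum were low in the libraries with a low thyroglobulin share, at a list level of 6.84, 6.92 and 7.99 in FAD4T and 7.07, 8.44 and 7.80 in wild type. Of 19 such genes 16 were lower in FAD4T with a median of -0.59, and 10 were called lower without FAD4T library 3, where 9.63% of all genes were, but the median was -0.18 with the 3 libraries left out. Hspa5, the chaperone BiP, was at 417, 479.8 and 1632 CPM in FAD4T and 536, 2261 and 1330 CPM in wild type, low in FAD4T 1 and 2 and wild type 1. Nuclear genes of oxidative phosphorylation were lower in 18 of 23, with a median of -0.40 and -0.19 without the 3 libraries. Of these genes 14 were at an unadjusted p under 0.05 (7.75% of all genes) and 5 had separate groups (4.14%). Without FAD4T library 3, 11 of them were called lower, against the same 9.63%. Uqcrfs1, the iron-sulfur protein of complex III, was at 93.7, 94.2 and 129 against 136, 159 and 147 CPM. Cytosolic ribosomal protein genes were lower in 22 of 25, 5 with separate groups (4.14% of all genes). Their median was -0.33, and -0.20 without the 3 libraries. Rps2, a protein of the small subunit, was at 459, 454 and 530.1 against 599, 723 and 559 CPM, and copies of ribosomal genes elsewhere in the genome could share its reads.

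App, the amyloid precursor gene, was at 654, 533 and 1007 CPM in FAD4T libraries 1 to 3 and 479, 1049 and 956 CPM in wild-type libraries 1 to 3, a difference of -0.18 (SE 0.26, edgeR adjusted p = 0.733). The groups overlapped, and the low values were those of FAD4T 1 and 2 and wild type 1. Of 21 genes of amyloid precursor processing and clearance, none had an unadjusted p under 0.05 or separate groups, and the median was -0.30, or -0.027 with the 3 libraries left out. Without FAD4T library 3, 6 of them were called lower, beside 9.63% of all genes. Counts on the mouse gene do not show whether a transgene is present, so these values do not check the genotype label.

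The same contrast was fitted in males of 2 months and in females of 8 months, each with its own 3 FAD4T and 3 wild-type libraries. In the lipid groups the median difference in females of 2 months, males of 2 months and females of 8 months was -0.63, -0.24 and 0.16 for fatty acid synthesis and -0.42, -0.19 and -0.055 for cholesterol synthesis and uptake. For MHC class II it was 0.66, 0.14 and 0.042, for dendritic cells 0.85, 0.14 and 0.11, and for interferon-stimulated genes -0.20, 0.46 and -0.041. Acly differed by -0.9998, -0.53 and 0.38, Cyp51 by -0.81, -0.0444 and 0.0225, and H2-Aa by 0.67, 0.15 and 0.0291 in the same order. These lists were further from 0 in females of 2 months for lipid, class II and dendritic cell genes, and for interferon genes in males. Markers of other tissues were uneven in the other contrasts too. In males the median difference was 5.84 for thymocytes, 3.24 for T and NK cells and 2.38 for airway epithelium, and in females of 8 months it was -6.60 for skeletal muscle. Their part in the comparison was not tested. Whether a list's median differs between the comparisons was not tested; single genes were.

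**Figure D5:**
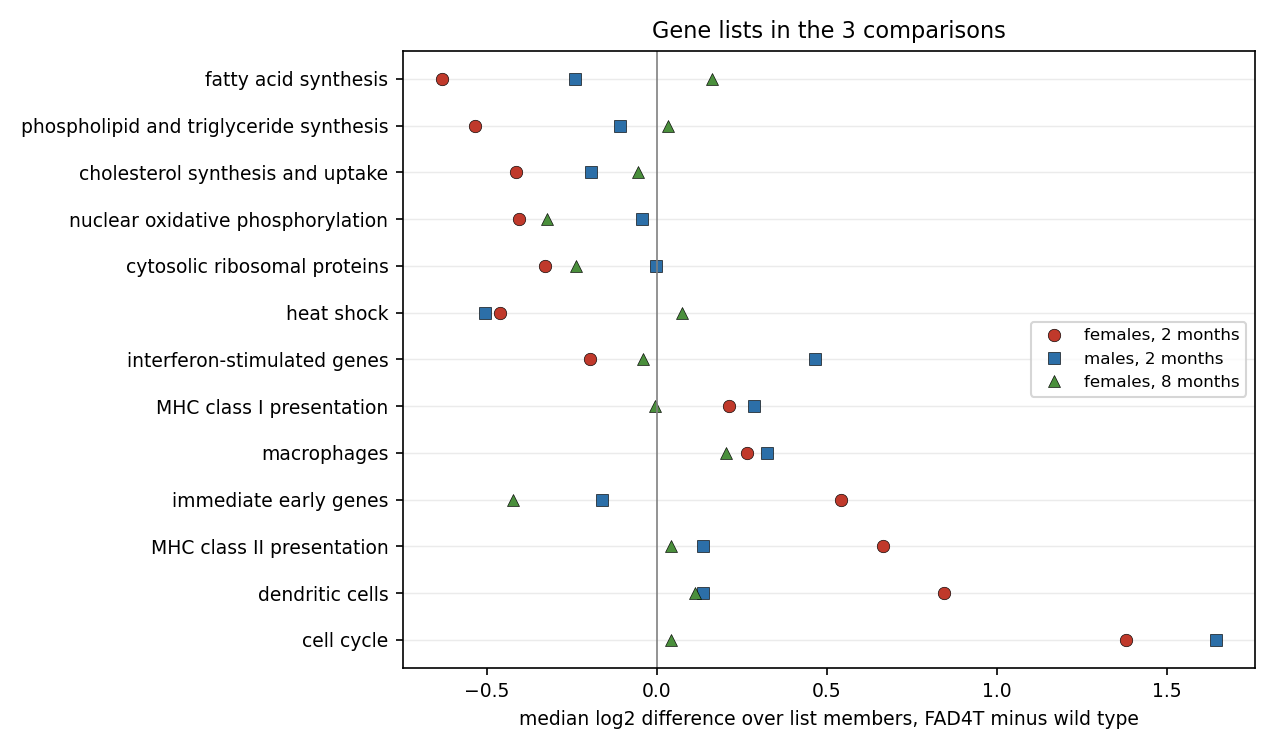
Median log2 difference over the members of 13 gene lists, FAD4T minus wild type, on the horizontal axis, in females of 2 months (red circles), males of 2 months (blue squares) and females of 8 months (green triangles). Fatty acid synthesis lies at -0.63, -0.24 and 0.16, MHC class II at 0.66, 0.14 and 0.042, and the cell cycle list is high in both sexes at 2 months.

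The test of the difference between sexes called no gene: 0 of 18493 (0%) had an adjusted p under 0.05 in edgeR, the smallest adjusted p was 1, and 744 genes had an unadjusted p under 0.05. DESeq2 called 32 genes. The 4 genes of smallest p in each direction were named, among named genes with a mean of at least 5 CPM in FAD4T or wild-type females of 2 months. Grhl1, an epithelial transcription factor, differed by 0.86 in females and -0.47 in males, Ddi2, a protease of the proteasome pathway, by 0.32 and -0.28, Rasgef1a by 0.69 and -0.47, and Zfp7 by 0.59 and -0.0718. In Grhl1 every FAD4T female, at 37.9, 24.7 and 30.3 CPM, lay above every wild-type female, at 13.7, 17.5 and 19.98 CPM. In the other direction stood Bst2, with -0.61 in females and 0.30 in males, and Hp, the haptoglobin gene, with -0.88 and 1.11. The coagulation genes F2 and F5, which the liver makes, completed the 4, and wild-type library 1 held most of their counts, with F5 at 13.1, 1.48 and 2.07 CPM in the wild types.

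The test between ages called no gene either: 0 of 18493 (0%), with a smallest adjusted p of 0.077 in edgeR and 1520 genes at an unadjusted p under 0.05. DESeq2 called 16. The 8 genes named by the same rule shared an edgeR adjusted p of 0.564. Zfp503, a zinc finger repressor, differed by 0.36 at 2 months and -0.24 at 8 months, Zfp954 by 0.45 and -0.37, Ier2, an immediate early gene, by 0.38 and -0.51, and Cdkn2c, an inhibitor of cell cycle kinases, by 0.46 and -0.42. Srxn1, which repairs oxidised peroxiredoxins, was at 18.9, 14.9 and 23.8 CPM in FAD4T and 30.6, 36.6 and 28.9 CPM in wild-type females of 2 months, with differences of -0.74 at 2 months and 0.26 at 8 months. Its groups at 2 months were separate. Nolc1, a nucleolar protein of ribosome assembly, differed by -0.50 and 0.33, the zinc finger gene Zscan22 by -0.69 and 0.40, and Sec23ip, a protein of endoplasmic reticulum exit sites, by -0.51 and 0.41. All 8 genes had opposite signs at the 2 ages, which their choice by the smallest p of the difference between ages favours. None of these differences between ages passed the test.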

How the data were processed

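Poly(A) RNA libraries were sequenced in paired ends, per the labels' protocols. The deposited unit is whole fragment counts per gene, made by the authors with featureCounts 1.6.0 over exons of Ensembl release 88 (GRCm38), with no strand option, per the file headers. A gene and its antisense partner cannot then be told apart. The submitters' processing notes list another build, GRCm39, and other software, among it HISAT2 2.0.4 and StringTie 1.3.4d. The headers name a STAR alignment file.

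The 6 libraries were fitted with the 18 other FAD4T and wild-type libraries of both sexes and ages, 24 libraries in 8 groups with 16 residual degrees of freedom, using edgeR 4.0.16 in R 4.3.3: trimmed mean of M values scaling, filterByExpr at a minimum count of 10, robust quasi-likelihood fit and prior count 0.125. The common biological coefficient of variation was 0.298. The script was tested on simulated data. DESeq2 1.42.0 was an alternative. The 310 genes with no symbol held at most 0.0939% of counts. The 40 gene lists name 521 distinct genes, of which 515 passed the filter, and a list level is the mean of log2(CPM + 1) over matched members. The lists, the named-gene rule (12 genes a direction, mean of 5 CPM or more, separate groups; list members; 4 a direction for each difference test) and the comparison itself were chosen with earlier results of these data known. The labels number the libraries as separate mice but give no litter or batch, so p-values measure the spread between these samples. No library pair held identical values. A list member is counted in its list but not reported here by itself.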

Additional observations from a re-analysis of the deposited data

How the results depend on the processing

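Settings were DESeq2, DESeq2 size factors in edgeR, no low-count filter, the 6 libraries alone, the replicate number as a block, the libraries that stood apart left out together, and each library left out in turn. The count of called genes was 0 in every setting except DESeq2 (287) and the single leave-outs, which ranged from 0 to 3001. Genes with an unadjusted p under 0.05 went from 3087 to 854 with the 6 libraries alone, 1203 with the block, 642 without FAD4T libraries 1 and 2, and 449 when wild-type library 1 was left out too; single leave-outs ranged from 1306 to 6386. Deviations of same-numbered libraries from their group means correlated at 0.139, -0.515 and 0.54 for numbers 1, 2 and 3. The same number was the best match for FAD4T libraries 1 and 3, while FAD4T library 2 correlated best with wild-type library 1 (0.682). The libraries also differed in markers of other tissues, so these correlations cannot tell whether the numbers pair the samples. The block called 0 genes, as did the fit without it. The difference between sexes called 32 genes with DESeq2. The difference between ages called 16 with DESeq2, 2 with no filter, and 0 to 1 in the leave-outs.

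Some named genes turned direction. Without FAD4T libraries 1 and 2 the log2 difference was -1.67 for Rag1, -2.08 for Dntt, 0.41 for Tg, 0.25 for Hspa5 and 0.28 for App. With wild-type library 1 also left out it was -0.31 for Dntt, 0.000454 for Tg, 0.68 for Pth and 0.00386 for App. Single leave-outs ranged as follows. H2-DMb1 from -0.38 to 0.0704, Slc5a5 from -0.15 to 1.22, Pth from -2.27 to 1.26, Alb from -8.78 to 1.35 and App from -0.48 to 0.0262. The causes were not tested. The medians of the fatty acid, cholesterol, glycerolipid, class II and dendritic cell lists kept their sign in all 11 settings that gave one. This was not particular to them: the skeletal muscle, smooth muscle, cell cycle, heat shock and ribosomal protein lists, among others, did so too. With 3 libraries a group, and 1 against 2 in the smallest setting, where the lone library is assumed to vary like the other groups, depth and number limit what can be detected.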

Other observations

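Immediate early genes, which neurons and many other cells switch on within minutes of a stimulus, were higher in the FAD4T females of 2 months. Of 12 tested members 11 had a positive difference. Of these, 3 were at an unadjusted p under 0.05 (8.94% of all genes) and 3 had separate groups (5.79%). The median was 0.54, and 0.10 with FAD4T libraries 1 and 2 and wild-type library 1 left out. Egr1 was at 53.7, 50.4 and 44.6 CPM in FAD4T libraries 1 to 3 and 21.8, 28.2 and 20.4 CPM in wild-type libraries 1 to 3, a log2 difference of 1.08 (SE 0.33, edgeR adjusted p = 0.174). Fos was at 16.3, 18.98 and 15.3 against 7.32, 11.6 and 9.21 CPM and Fosb at 0.95, 1.46 and 2.26 against 0.407, 0.74 and 0.345 CPM. All FAD4T values lay above all wild-type values in these 3 genes. In males of 2 months and females of 8 months the list medians were -0.16 and -0.42, and Egr1 differed by -0.49 and -0.48.

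Heat shock genes were lower in all 10 members, with a median of -0.46, and -0.34 with the 3 libraries left out. Of them 4 were at an unadjusted p under 0.05 (7.75% of all genes) and 1 had separate groups (4.14%). In males the median was -0.50 and in females of 8 months 0.073. Pck1, the cytosolic enzyme of glyceroneogenesis in fat, was at 181, 367 and 105 CPM in FAD4T and 125, 43.1 and 78.4 CPM in wild type, with overlap, and its difference was 1.40 (SE 0.50) where most other adipocyte genes were near 0 or lower.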
